A study of Mus musculus with 8 samples.

Results

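Shared intragenic peaks away from starts are regions of open chromatin that lay inside the body of a protein-coding gene in pachytene spermatocytes of both genotypes. They were chosen by their position and by their presence in both peak lists. A peak of the *Arid1a* cKO list was a member when it lay on an autosome, was under 5000 bp wide, shared at least 1 bp with exactly 1 *Arid1a* WT peak, had its midpoint in the body of a protein-coding gene, and lay over 1000 bp from every annotated transcription start. Of 30244 cKO peaks, 2345 (7.75%) met the rule, 509 with the midpoint in an exon and 1836 in an intron. They fell in 1896 of 20807 autosomal protein-coding genes (9.11%), and 1593 of these genes held 1 member.

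Chromatin was profiled by ATAC-seq, in which a transposase cuts accessible DNA and ties sequencing adapters to it. The cells were pachytene spermatocytes, purified from testes of adult males by Sta-Put sedimentation, a separation of cells by size. Per the study's methods, the testes of many adult males were combined for the purification, and fractions made up mainly of pachytene spermatocytes were pooled and frozen. Frozen aliquots then gave 4 libraries of 100,000 cells for each genotype. The cKO males were *Arid1a* fl/fl; Stra8-Cre Tg/0, and the WT males were *Arid1a* fl/fl or fl/+. The Cre driver acts from the spermatogonial stage, and some cells escape deletion. In the study, RT-PCR of purified cKO pachytene spermatocytes still gave the floxed product beside the excised one. Staining there also showed cKO pachytene spermatocytes with ARID1A. The cKO cells were thus a mixture, and the share of such cells in these 4 libraries is not known. Both genotypes had a CD1 background, and nothing in the labels says that the 4 libraries came from separate animals or separate pools of animals. The 4 libraries of a genotype were reduced by the authors to 1 peak list, in which the values of a peak came from 1 unnamed library. No value below therefore has a spread between replicates. The tests take the 19 autosomes of this pair of lists as units, so their p-values measure the spread between chromosomes, and with signs flipped over 19 autosomes they cannot fall below 3.8e-06.

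ARID1A is a DNA-binding subunit of the BAF complex, a chromatin remodeler that slides and evicts nucleosomes. Promoters, where transcription starts and nucleosomes are depleted, give much of the strong ATAC-seq signal of a cell. Accessible sites within genes can be enhancers, unannotated promoters, CpG islands inside genes or repeated DNA, and exons differ from introns in base composition and nucleosome occupancy.

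Depth was known only through the fold enrichment, in which MACS2 adds 1 fragment to both the summit and the background before it divides them. Its steps gave a background of 5.11 fragments per base in the cKO list and 4.33 in the WT list, and the summits of members held 14 to 410 fragments in the cKO list (median 30) and 13 to 232 in the WT list (median 21). Promoters of spermatocyte marker genes carried a peak for 12 of 12 genes in both lists. The counts for spermatid markers were 4 of 8 in WT and 6 of 8 in cKO, for spermatogonial markers 1 and 5 of 8, for Sertoli markers 2 and 3 of 6, for Leydig markers 2 of 7 in both, and for peritubular, vascular and immune markers 0 of 8 in both. Over all 20807 autosomal coding genes the shares were 52.4% in WT and 58.99% in cKO. The lists differed most at spermatogonial markers, and the part of other cells in the values below was not tested.

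Tandem arrays, in which 1 stretch of DNA follows itself in many copies, lay under the strongest members. The windows of 200 bp around the midpoints of the 3 strongest intronic members of unique sequence are shown from the mm10 (GRCm38) reference, plus strand. Unique sequence here means only that at least 50% of the 50 bp stretches (50-mers) of the whole peak occurred once in the genome. The share was 68.4% in *Alg9*, 81.4% in *Abcc9* and 74.1% in *Mbnl2*. Capitals mark CCAATCA or its reverse complement TGATTGG, the CCAAT box bound by NF-Y. The box recurred in all of them, and the copies had a period of 24 bp in *Alg9*, 29 bp in *Abcc9* and 31 bp in *Mbnl2*.
Alg9, chr9:50832774-50832973: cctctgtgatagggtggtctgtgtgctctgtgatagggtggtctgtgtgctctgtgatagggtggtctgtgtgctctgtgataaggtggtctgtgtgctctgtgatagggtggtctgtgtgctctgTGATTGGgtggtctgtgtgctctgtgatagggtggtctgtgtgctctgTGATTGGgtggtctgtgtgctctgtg
Abcc9, chr6:142662333-142662532: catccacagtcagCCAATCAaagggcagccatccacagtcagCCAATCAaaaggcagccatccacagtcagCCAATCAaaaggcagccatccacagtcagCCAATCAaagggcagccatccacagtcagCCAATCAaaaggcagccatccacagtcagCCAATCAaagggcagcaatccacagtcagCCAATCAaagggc
Mbnl2, chr14:120350319-120350518: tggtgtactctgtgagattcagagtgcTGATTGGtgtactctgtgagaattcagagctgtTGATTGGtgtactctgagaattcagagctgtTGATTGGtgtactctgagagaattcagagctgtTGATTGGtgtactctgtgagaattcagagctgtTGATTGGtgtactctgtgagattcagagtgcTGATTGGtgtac

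Another set of arrays had copies of 53 bp and is shown for *Castor2* and *Auts2*, with every other copy of 53 bp in capitals. The *Castor2* stretch and the reverse complement of the *Auts2* stretch shared an unbroken run of 36 bp.
Castor2, chr5:134107188-134107399: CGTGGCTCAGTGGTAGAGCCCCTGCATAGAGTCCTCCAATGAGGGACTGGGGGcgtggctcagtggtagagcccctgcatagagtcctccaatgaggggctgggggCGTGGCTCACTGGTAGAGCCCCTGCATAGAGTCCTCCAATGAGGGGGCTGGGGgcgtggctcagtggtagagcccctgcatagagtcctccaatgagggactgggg
Auts2, chr5:131623195-131623406: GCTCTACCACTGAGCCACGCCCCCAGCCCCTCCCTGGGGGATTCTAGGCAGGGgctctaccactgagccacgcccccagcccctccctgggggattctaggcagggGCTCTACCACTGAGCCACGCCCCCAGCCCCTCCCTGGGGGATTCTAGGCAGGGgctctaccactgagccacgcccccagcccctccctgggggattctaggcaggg

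Long arrays, with periods between 190 and 220 bp, had copies of 199 to 214 bp. The 48 members with recurring copies of other periods, from 102 to 1725 bp, are not shown. A stretch of 212 bp, the length of 1 copy, is shown from an intronic member in *Sorcs2*, with the YY1 motif (AAGATGGC, here as its reverse complement GCCATCTT) in capitals.
Sorcs2, chr5:36237953-36238164: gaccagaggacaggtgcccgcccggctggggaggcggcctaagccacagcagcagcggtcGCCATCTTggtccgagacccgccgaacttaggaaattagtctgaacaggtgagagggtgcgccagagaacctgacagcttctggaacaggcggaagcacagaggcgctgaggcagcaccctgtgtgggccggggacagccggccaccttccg

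The 3 coding-exon windows shown next held no such copies and were rich in CpG. The strongest coding-exon member, in *Sft2d3*, is described further on without its sequence. The *Topors* peak was wide enough to reach the start of its gene, although its midpoint did not. Capitals mark NRF1 (CGCNTGCG) in *Zfp771* and *AI464131* and MYB (GGCNGTT) in *Topors*.
Zfp771, chr7:127254159-127254358: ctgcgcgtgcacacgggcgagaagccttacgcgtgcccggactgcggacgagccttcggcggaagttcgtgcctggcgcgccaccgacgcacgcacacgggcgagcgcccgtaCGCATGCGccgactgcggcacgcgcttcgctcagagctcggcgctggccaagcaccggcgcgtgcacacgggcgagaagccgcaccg
AI464131, chr4:41498372-41498571: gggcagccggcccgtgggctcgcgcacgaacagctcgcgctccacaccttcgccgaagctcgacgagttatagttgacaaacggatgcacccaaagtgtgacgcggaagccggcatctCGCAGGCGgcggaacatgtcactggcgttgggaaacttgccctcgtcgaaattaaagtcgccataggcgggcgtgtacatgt
Topors, chr4:40268323-40268522: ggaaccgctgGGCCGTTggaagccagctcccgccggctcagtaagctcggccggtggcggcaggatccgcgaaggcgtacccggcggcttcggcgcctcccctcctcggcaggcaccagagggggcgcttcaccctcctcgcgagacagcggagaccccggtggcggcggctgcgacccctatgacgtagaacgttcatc

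CTCF, a zinc finger protein that holds chromatin loops, can bind inside genes, and the strongest members of unique sequence that held its consensus are shown because its share is tested below. Capitals mark the CTCF consensus in *Sec22c*, where it occurred 3 times in an array of 45 bp copies, and NRF1 in *Asb2*, where the CTCF match lay outside the printed bases.
Sec22c, chr9:121697580-121697779: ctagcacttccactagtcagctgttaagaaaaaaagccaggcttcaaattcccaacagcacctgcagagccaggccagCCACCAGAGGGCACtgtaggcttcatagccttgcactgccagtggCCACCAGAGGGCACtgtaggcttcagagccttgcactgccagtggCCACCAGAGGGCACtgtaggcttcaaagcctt
Asb2, chr12:103325452-103325651: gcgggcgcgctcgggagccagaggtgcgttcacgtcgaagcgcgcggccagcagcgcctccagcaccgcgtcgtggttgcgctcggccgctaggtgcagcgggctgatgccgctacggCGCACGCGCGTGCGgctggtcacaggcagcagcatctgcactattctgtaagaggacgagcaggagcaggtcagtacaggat

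To ask in which part of the gene accessibility shared by both genotypes lay, the members were split by the part of the gene at the midpoint. Coding exons held 317 members, exons outside coding sequence 192 and introns 1836. Exons took 21.7% of members (95% Wilson interval, 20.1 to 23.4) but 7.32% of the searched sequence, the parts of coding gene bodies over 1000 bp from a start. Per megabase this was 13.2 members in coding exons, 4.60 in other exons and 2.21 in introns.

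Exonic density (7.74 per Mb) exceeded intronic density on all 19 autosomes, by 1.75 ± 0.45 on the log2 scale (SD, n = 19 autosomes), which is 3.36-fold (exact sign-flip permutation test over autosomes, two-sided, adjusted p = 1.5e-05 over 12 tests). This direction and call held under every alternative tried. The GC content of the searched exons was 45.8% and of the searched introns 42.3%, and the part of base composition in the difference was not tested. Counting an exon touched by any base of the peak raised the share to 36.3%.

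Exonic members sat toward the end of their genes. The median position was 85.0% of the way from the start to the end of the gene for exonic members and 51.1% for intronic members. The last 10% of the gene held 207 of 509 exonic members (40.7%), whereas intronic members were spread evenly, with 7.57% to 10.9% in each of 10 equal steps. Of 461 exonic members on an exon of the longest coding transcript, 289 (62.7%) lay in the last of several exons, 143 in an internal exon, 12 in the first and 17 in a gene of 1 exon. In last exons, 150 of 289 midpoints (51.9%) were coding. Gained intragenic peaks, the 4561 that met the same limits but overlapped no WT peak, gave a like share. Among their exonic peaks 60.2% lay in the last 20% of the gene against 58.9% of exonic members, a difference of -0.05 ± 11.1 percentage points (SD, n = 19 autosomes, exact sign-flip permutation test, adjusted p = 0.98). The last exons of genes are long, and their length was not modelled here. The distance from a start was part of the rule and removes most first exons.

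**Figure D1:**
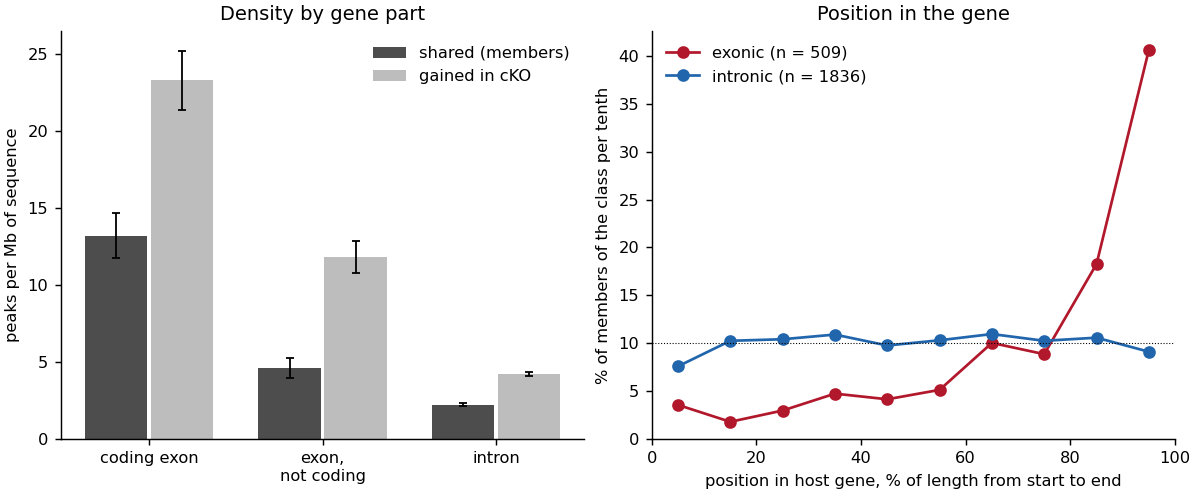
Left, peaks per megabase (vertical axis) in coding exons, other exons and introns for the 2345 members and for gained intragenic peaks, with bars as counts over sequence length and error lines as 95% normal intervals of the count. Right, the share of exonic and of intronic members in each of 10 equal steps along the host gene, with a dotted line at 10%, and exonic members rise to 40.7% in the last step.

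The 8 strongest exonic members of unique sequence by cKO −log10 q lay in the single exon of *Sft2d3*, a vesicle transport gene, in last exons of *Pip5k1c*, *St3gal2*, *Zfp771*, *AI464131*, *Stx1a* and *Isl2*, and in exon 2 of 3 of *Topors*, a ubiquitin and SUMO ligase. The *Sft2d3* peak had a fold enrichment of 35.0 in cKO and 23.6 in WT, from summits of 213 and 125 fragments. Its midpoint was the closest to a start among them, at 1006 bp. The peak itself was 1824 bp wide and ended at 31911729, just short of the start of its gene at 31911824. *Pip5k1c*, a phosphatidylinositol phosphate kinase, had 27.7 in cKO and 16.5 in WT at chr10:81316743-81321725, over noncoding sequence of exon 19. At 4983 bp it was also the widest member, and its span reached an annotated start.

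*St3gal2*, a sialyltransferase, had a fold enrichment of 24.5 in cKO and 15.0 in WT in noncoding sequence of exon 7. *Zfp771*, a zinc finger gene, had 24.2 and 15.9 in coding sequence of exon 3 (chr7:127253230-127255287), and *AI464131* had 23.2 and 14.6 in coding sequence of exon 2 (chr4:41497227-41499716). The syntaxin gene *Stx1a* (22.7 in cKO, 12.01 in WT), the LIM homeobox gene *Isl2* (22.7 and 15.9) and *Topors* (22.1 and 14.8) followed. In each of these 8 the cKO value was the higher, 1.43 to 1.89 times the WT value. Only *Stx1a* among them held recurring copies, with 10.9% of its 20-mers found more than once and a period of 53 bp.

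Exonic members in *Zfp* zinc finger genes numbered 14 (2.75% of exonic members), and intronic ones 16 (0.871% of intronic members). The share of such genes among all autosomal coding genes, and of their exons in the searched sequence, was not counted. No excess can therefore be read from these shares.

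CpG composition set exonic members apart from intronic ones. The CpG ratio, the observed over the expected number of CpG in the 300 bp around the midpoint, had a median of 0.459 in exonic and 0.229 in intronic members. The exonic value was higher on all 19 autosomes, by 0.259 ± 0.128 (SD, n = 19 autosomes, exact sign-flip permutation test, adjusted p = 1.5e-05), and this held under every alternative. Median GC content was 58.7% in exonic and 52.8% in intronic members, beside 54% in all members and 46.8% in windows 5000 bp to each side.

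CpG-rich members, defined by a GC content of at least 50% and a CpG ratio of at least 0.6, numbered 185 of 509 in exons (36.3%, 32.3 to 40.6) and 167 of 1836 in introns (9.10%, 7.86 to 10.5). These are the limits commonly used for CpG islands, applied to 300 bp. Gained peaks of the same gene parts were CpG-rich less often, in 11.95% of exonic and 3.31% of intronic ones. The differences were 25.6 ± 13.5 percentage points in exons (higher on 19 of 19 autosomes, adjusted p = 6.7e-06) and 5.63 ± 3.22 in introns (18 of 19, adjusted p = 1.2e-05), by the exact sign-flip permutation test in a family of 14 tests chosen after the data were seen. Of the 167 intronic ones, 60 were long arrays of 190 to 220 bp. Without such arrays the intronic shares were 6.18% in members and 2.74% in gained peaks, a difference of 3.36 ± 2.83 points (exact permutation test, adjusted p = 5.87e-05), an alternative added after the data were seen. Gained peaks were also weaker than members, and the part of strength in these differences was not tested. Among shared peaks within 1000 bp of a start, 71.9% were CpG-rich.

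CpG-rich exonic members were coding at the midpoint in 156 of 185 cases (84.3%) and lay a median of 3865 bp from the nearest annotated start. Their median fold enrichment in cKO was 6.87. The strongest CpG-rich intronic members without recurring copies lay in *Clec11a*, a secreted growth factor gene (24.7 in cKO, 15.4 in WT), *Gm20517* (20.6 and 13.1), *Cx3cr1*, a chemokine receptor gene (19.6 and 13.5), and *Prdm2*, a histone methyltransferase gene (18.98 and 9.005). They were 1141 to 4392 bp from the nearest start.

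Motifs were searched on both strands in the 300 bp around each midpoint. NRF1 (CGCNTGCG), a transcription factor of CpG-rich promoters, was present in 8.25% of exonic members, 1.63% of intronic members and 0.725% of flanking windows, and in 6.92% of all autosomal cKO peaks. The exonic share exceeded the intronic share by 6.77 ± 6.52 percentage points (SD, 17 of 19 autosomes higher, exact sign-flip permutation test, adjusted p = 0.00017) and the share in gained exonic peaks (3.70%) by 4.34 ± 7.81 (15 of 19 autosomes higher, adjusted p = 0.029). Of 42 exonic members with the motif, 39 were CpG-rich.

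SP (GGGCGG) was present in 25.7% of exonic, 14.7% of intronic and 6.48% of flanking windows, and in 31.6% of all autosomal cKO peaks. ETS (CCGGAAG) was present in 7.47%, 4.96% and 1.64%, against 8.07% of all peaks. Of the 91 intronic members with ETS, 35 were long arrays, and without these the intronic share was 3.23%. MYB (GGCNGTT), the motif of the meiotic regulator MYBL1, was present in 15.5%, 14.3% and 10.3%, against 13.8% of all peaks. AP-1 (TGANTCA) differed from these in that the flanks (8.10%) had a larger share than the members (5.71%), with 5.52% of all peaks. RFX (GTTGCCAT) was found in 2.004% of members, 0.853% of flanks and 1.43% of all peaks, and CRE (TGACGTCA) in 0.554%, 0.320% and 1.24%. NF-Y (CCAATCA) was present in 3.14% of exonic and 6.86% of intronic members, 3.07% of flanks and 6.96% of all peaks. These shares are descriptions and were not tested.

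CTCF matches were rare. The consensus was present in 18 of 2345 members (0.768%, 0.486 to 1.21), in 0.811% of gained intragenic peaks, in 0.773% of shared intergenic peaks, in 0.679% of all autosomal cKO peaks and in 0.235% of flanks. The excess over flanks was 0.48 ± 0.95 percentage points (SD, n = 19 autosomes, exact sign-flip permutation test, adjusted p = 0.052) and was past the threshold under 6 of the alternatives. The differences from gained and intergenic peaks, -0.05 ± 1.002 and -0.01 ± 1.12 percentage points, were not detected (exact permutation test, adjusted p = 0.91 and 0.96). Among peaks on 3 or more rows in both lists, members held it less often than intergenic peaks (-0.62 points, exact permutation test, adjusted p = 0.0234). Exonic members held it in 1.18% and intronic members in 0.654% of cases, a difference of 1.30 ± 4.07 points on the mean over autosomes (exact test, adjusted p = 0.27).

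**Figure D2:**
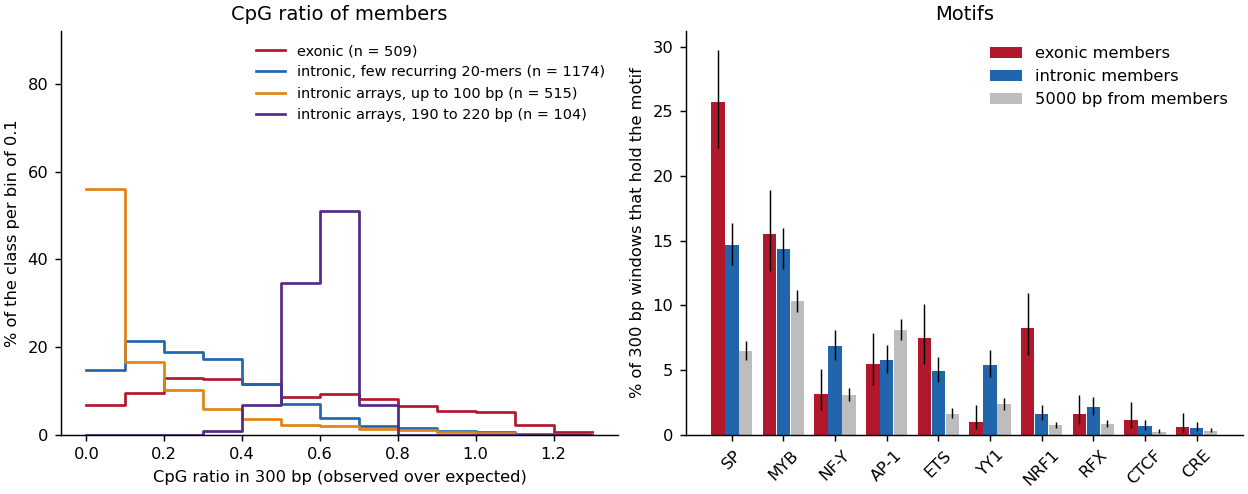
Left, the distribution of the CpG ratio in 300 bp for exonic members and 3 classes of intronic members, as the percentage of each class per bin of 0.1. Right, the percentage of exonic members, intronic members and windows 5000 bp away that held each motif, with 95% Wilson intervals, and NRF1 stands at 8.25%, 1.63% and 0.725%.

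Recurring sequence was another feature that the rule did not use. A peak was taken to hold recurring copies when at least 10% of its 20-mers occurred more than once within it, and the period was the commonest distance between copies. This held for 683 members (29.1%, 27.3 to 30.998), beside 2.88% of windows of the same width 5000 bp away. The difference was 27.04 ± 7.80 percentage points and was positive on all 19 autosomes (exact sign-flip permutation test, adjusted p = 6.7e-06). It was seen in 662 of 1836 intronic members (36.1%) and in 21 of 509 exonic members (4.13%), a difference of 32.2 ± 9.72 points (19 of 19 autosomes, exact test, adjusted p = 6.7e-06).

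Shared peaks at starts rarely held such copies (0.998%), 28.9 ± 7.94 points less than members (exact test, adjusted p = 6.7e-06). Gained intragenic peaks held them in 9.93%, 19.2 ± 6.89 points less than members (19 of 19 autosomes, exact test, adjusted p = 6.7e-06). Gained peaks were weaker, with a median −log10 q of 4.24 against 11.7, and the share rose with strength in them. Between a −log10 q of 10 and 20 it was 29.5% of 650 members and 15.4% of 350 gained peaks. From 20 to 40 the shares were alike, 32.2% of 451 members and 31.9% of 72 gained peaks. Above 40 it was 32.5% of 286 members and 8 of 10 gained peaks. Shared intergenic peaks held recurring copies in 27.1%, and the difference from members was not past the threshold (2.95 ± 6.17 points, exact test, adjusted p = 0.056).

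Most arrays had short periods. In 531 members (22.6%) the period was at most 100 bp, with a median of 36 bp, and in 415 of these it was 20 to 60 bp, the length of minisatellite units. In introns they numbered 515 and in exons 16. Their CpG ratio was low, with a median of 0.0677, and their median fold enrichment was 5.73 in cKO and 4.88 in WT. Short arrays were more frequent in members than in shared intergenic peaks (22.6% against 13.1%, 9.95 ± 4.64 points, 19 of 19 autosomes, exact sign-flip permutation test, adjusted p = 6.7e-06) and than in gained intragenic peaks (8.35%, 14.2 ± 4.90 points, adjusted p = 6.7e-06). Gained peaks were weaker and narrower than members, with a median width of 497 bp against 1081 bp. The part of strength and width in the difference from gained peaks was not tested.

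Of the 20 strongest members, 13 held short arrays, and of the 50 strongest, 23 did. *Alg9*, a mannosyltransferase gene of N-glycosylation, had the highest fold enrichment of all, 67.3 in cKO and 43.7 in WT, from summits of 410 and 232 fragments in intron 14 at chr9:50832144-50833603. *Abcc9*, which encodes a subunit of ATP-sensitive potassium channels, had 65.1 and 37.7 in intron 15 (chr6:142661337-142663528). *Mbnl2*, a splicing regulator, had 52.9 and 30.95 in intron 2 (chr14:120349730-120351107).

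The other 5 of the 8 strongest intronic members of unique sequence were in *Zfpm1*, a cofactor of GATA factors (51.1 in cKO, 32.5 in WT, period 45 bp), *Lrrfip2* (48.3 and 30.8, 23 bp), the metabolite receptor gene *Oxgr1* (45.3 and 26.5, 31 bp), the adhesion gene *Sdk1* (37.3 and 15.2, 52 bp) and *Ndufaf8*, an assembly factor of respiratory complex I (34.4 and 22.1, no recurring copies). The *Ndufaf8* peak was 4313 bp wide and covered the whole gene with its start, so that its summit need not lie in the intron. The matches of CCAATCA in the whole peak numbered 8 in *Alg9*, 16 in *Abcc9*, 20 in *Mbnl2* and 27 in *Shoc2*, a RAS pathway scaffold gene (34.0 in cKO, 15.2 in WT, 25 bp). The remaining 8 of the 12 strongest short arrays held 0. Over all short arrays 32 of 531 (6.03%) held 3 or more matches.

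The period of 53 bp was the commonest, in 51 members. Of 72 arrays with periods of 52 to 54 bp, 55 shared at least 5 of their 20-mers with another of them on either strand, whereas of 459 short arrays with other periods 69 did. *Auts2* (24.4 in cKO, 16.1 in WT) and *Castor2* (25.2 and 11.4), a gene of the mTORC1 pathway, were the strongest of this period.

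Long arrays had periods of 199 to 214 bp, 212 bp in 47 members, 208 bp in 29 and 214 bp in 13. There were 104 (4.43% of members), all of them intronic, and in all 104 at least 50% of the bases were marked as repeats in the reference. Tandem units of this order are known from the promoters of young mouse LINE-1 retrotransposons, and YY1 is a known regulator of LINE-1 promoters, but the peaks were not matched to a library of repeats. The YY1 motif was present in 67 of these 104 (64.4%), and these were also 67 of the 104 members that held it. It was found in 5.39% of intronic and 0.982% of exonic members, 4.23% of all autosomal cKO peaks, 2.11% of members without recurring copies and in 2.35% of flanks. Long arrays were less frequent in members than in shared intergenic peaks (10.8%, -5.92 ± 4.40 points, lower on 16 of 19 autosomes, exact sign-flip permutation test, adjusted p = 4.8e-05).

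The strongest long arrays lay in *Gm5592* (13.9 in cKO, 15.2 in WT), *Fgf12*, a fibroblast growth factor homologue (11.6 and 11.1), and the ETS factor gene *Erg* (10.6 and 11.1). At most 2.78% of their 50-mers occurred once in the genome. Reads from such copies can be placed at any of them, and how much of the level at a long array came from its own copies was not tested. Members with under 50% unique 50-mers numbered 507 (21.6%), of which 45 held no recurring copies.

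**Figure D3:**
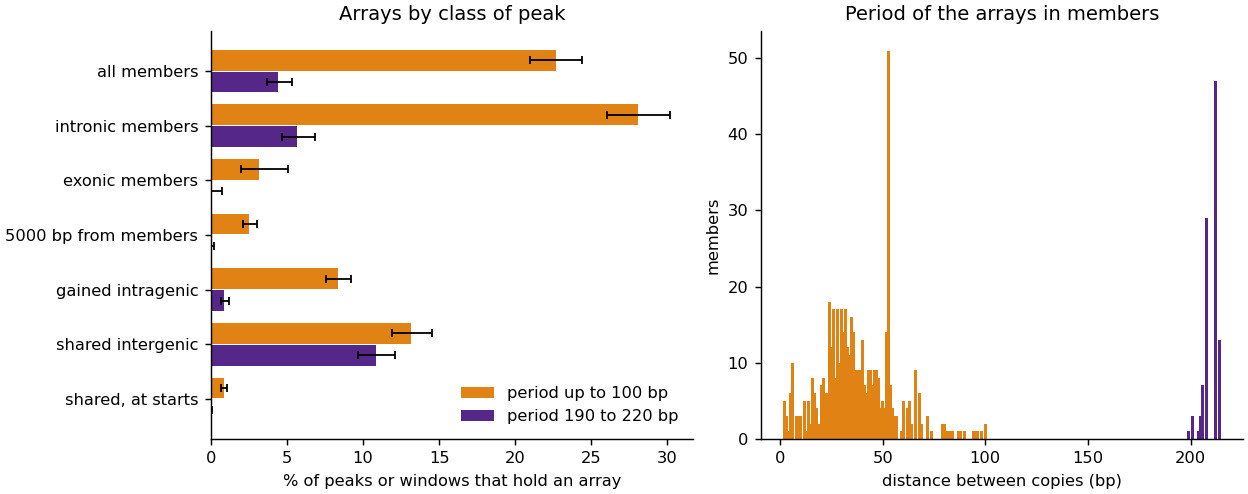
Left, the percentage of peaks or windows that held an array with a period up to 100 bp or of 190 to 220 bp in each class of peak, with 95% Wilson intervals, and intronic members stand highest for short arrays. Right, the number of members at each period in base pairs, with peaks at 53 bp (51 members) and 212 bp (47 members).

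The comparison of exons between shared and gained peaks was not stable. All members had an exon share 1.73 ± 4.91 percentage points below that of gained intragenic peaks (21.7% against 23.1%, lower on 12 of 19 autosomes, exact sign-flip permutation test, adjusted p = 0.19). Without peaks of recurring copies the members had 29.4% and the gained peaks 25.2%, and the difference turned to 3.58 ± 4.69 points (exact test, adjusted p = 0.0069). This alternative was chosen after the data were seen. The sign also turned under 5 of the other alternatives, and with the WT peak covering at least 50% of the cKO peak the members had the lower share (-4.25 points, exact test, adjusted p = 0.011). The lower share also passed the threshold at 3000 bp from starts (-2.71 points, exact test, adjusted p = 0.0327) and under 2000 bp of width (-3.06 points, exact test, adjusted p = 0.0288).

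Against gained intragenic peaks the members had more GC and CpG. Median GC content was 54% against 51.7% (2.40 ± 0.90 points, 19 of 19 autosomes, exact sign-flip permutation test, adjusted p = 1.5e-05) and the CpG ratio was 0.274 against 0.226 (0.0468 ± 0.0422, 15 of 19 autosomes, adjusted p = 0.00076). Both differences kept their direction among peaks with a −log10 q of 5 to 10 but missed the threshold there (exact tests, 0.965 points, adjusted p = 0.24, and 0.00712, adjusted p = 0.84). Among intronic peaks without recurring copies the CpG ratio was 0.272 in members and 0.213 in gained peaks (0.0513 ± 0.0328, 19 of 19 autosomes, exact test, adjusted p = 6.7e-06). Against shared intergenic peaks the CpG ratio of members was lower (0.274 against 0.309, -0.0323 ± 0.0583, exact test, adjusted p = 0.048), a call lost under most alternatives and a difference of 0.00624 without recurring copies (adjusted p = 0.79).

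A WT peak lay at the promoter of host genes of members less often than of host genes of gained peaks, 66.9% against 72.2% (-4.89 ± 4.92 points, lower on 17 of 19 autosomes, exact sign-flip permutation test, adjusted p = 0.00013). The WT peak that a member overlapped was counted where it came within 1000 bp of a start, and gained peaks overlap none by the rule. The comparison is therefore uneven, and the part of such peaks in it, at any strength, was not tested. Members lay farther from the nearest start, at a median of 6758 bp against 5909 bp (1392 ± 1569 bp on the mean over autosomes, exact test, adjusted p = 0.00038). Neither call held among peaks of like strength. At a −log10 q from 5 to 10 the differences were 1.13 points, the opposite sign (adjusted p = 0.77), and 506.2 bp (adjusted p = 0.84, exact tests).

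The level of members in the 2 lists is a description, since presence in both lists chose them. The median fold enrichment was 5.07 in cKO and 4.13 in WT, and median −log10 q was 11.7 and 6.38. The values of the lists rose together (Spearman's rho 0.725 across 2345 members, which share their libraries and depth). The cKO value was the higher in 1870 members (79.7%), against 90.7% of all shared autosomal peaks, 96.3% of those at starts and 79.3% of shared intergenic peaks. The median log2 ratio of cKO to WT was 0.33, beside 0.62 for shared peaks at starts and 0.35 for shared intergenic peaks.

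The log2 ratio differed by array class. Its median was 0.39 in 1662 members without recurring copies, 0.26 in short arrays and 0.00 in long arrays, where the cKO value was the higher in 52 of 104. The share of unique sequence moved with this order, with medians of 100%, 35.0% and 0%, and its part was not tested.

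The cKO fold enrichment was at least 2 times the WT value in 67 members (2.86%), against 5.32% of all shared autosomal peaks. It was at most 1/2 of the WT value in 8 members (0.341%), against 0.151%. All 8 overlapped a WT peak that also overlapped another cKO peak, and in 7 that WT peak reached an annotated start, so its summit value need not belong to the member. *Piwil1*, a PIWI protein of the piRNA pathway, was such a case, with 4.58 in cKO and 10.9 in WT, where the WT peak covered 4.83% of the member. The other 7 were in *Mlst8*, *Adrm1*, *Spata33*, *Gtf2a1*, *Rsph6a*, *Ankrd36* and *Cdyl2*, named here after their values were seen.

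Among members with a −log10 q of at least 10 in both lists, the highest ratios of cKO to WT were in *Fer1l6* (17.7 against 6.75, 2.62 times), *Sdk1* (2.46 times), the calcium-binding protein gene *Necab2* (20.5 against 8.82, 2.32 times) and the glypican gene *Gpc6* (14.6 against 6.38, 2.28 times). The lowest were in *Serinc5*, a transmembrane protein gene (6.05 against 10.3, 0.587 times), the kinase gene *Mark4* (4.75 against 8.07, 0.588 times), *Bend7* (5.56 against 8.82, 0.631 times) and the lactase gene *Lct* (5.24 against 7.50, 0.698 times). All 4 of the lowest held short arrays, as did *Sdk1* among the highest, against 222 of 663 members (33.5%) of this strength. The share of 50-mers found once in the genome was 4.88% in *Bend7* and 6.35% in *Lct*, against 72.8% in *Serinc5* and 95.2% in *Mark4*. How much of the level in *Bend7* and *Lct* came from their own copies was not tested. *Fer1l6* lay just under the limit for recurring copies, with 9.41% of its 20-mers. With 1 list per genotype these ratios have no replicate check.

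**Figure D4:**
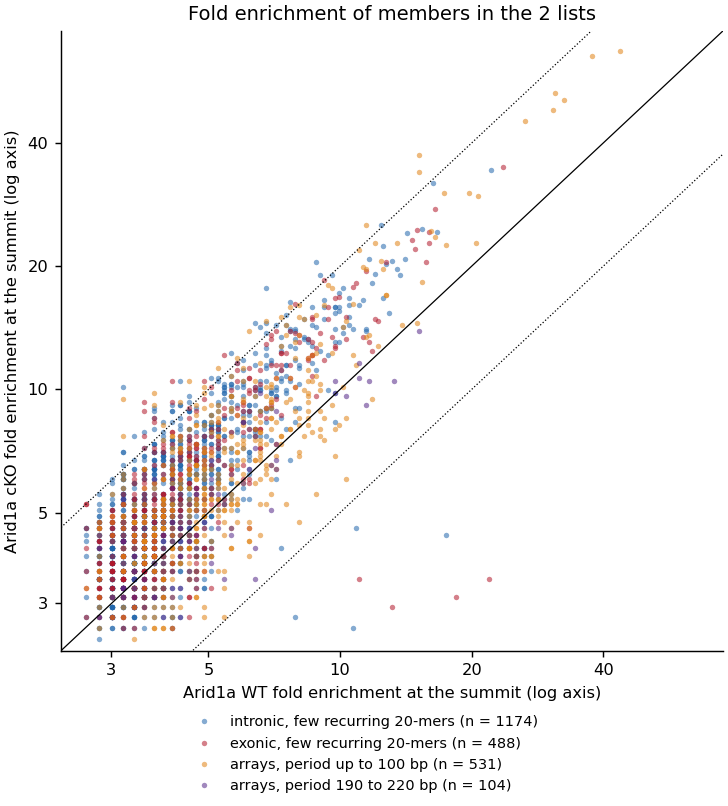
Fold enrichment of each member in the WT list (horizontal axis) and the cKO list (vertical axis), both on log axes, coloured by exon, intron and array class, with a solid line at equality and dotted lines at 2 times and 1/2. The 48 members with recurring copies of other periods are not drawn. Most points lie above equality, and long arrays lie on both sides of it.

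The gene with the most members was *Gm20388*. This gene model of 4435 kb spans other genes and held 16 members with cKO fold enrichments of 3.60 to 14.4, all in its first intron. Where gene bodies overlapped, a member went to a gene with an exon at the midpoint, or else to the shortest gene. By this rule the 16 midpoints lay in no other protein-coding gene body, and they counted as intragenic through this model alone. Members in *Gse1* and *Zfpm1* also lay within its span and were counted under those genes. *Camta1*, a calmodulin-binding transcription activator, held 8 intronic members from 3.60 to 8.84. *Osbp2*, *Gse1* and *Cyp19a1* held 6 each. In *Osbp2*, an oxysterol-binding protein gene, 3 of the 6 held short arrays. In *Cyp19a1*, the aromatase gene that makes estrogen, none did, and its members ranged from 2.78 to 8.02. No transcript of *Cyp19a1* annotated as protein-coding spanned the midpoints of its 6 members, so they were not in introns of its coding transcripts. The same was true of the strongest member in *Auts2* and of the member in *Gm20517*. With autosomal coding genes cut by length into 5 equal parts, the share of genes with a member rose from 1.90% in the shortest to 22.1% in the longest, which started at 58.4 kb.

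Gene groups of the germ line and of chromatin were counted beside the 9.11% of all autosomal coding genes. Of 27 BAF and PBAF subunit genes, 6 held a member (9 members). *Arid1b*, the paralog of *Arid1a*, held 3, the strongest in intron 4 with a fold enrichment of 18.98 in cKO and 13.7 in WT (chr17:5189408-5190915). *Dpf3*, a histone reader of BAF, followed with 6.71 and 5.82, and *Arid2*, *Bicra*, *Pbrm1* and *Smarcb1* were the others. The median length of these 27 genes was 31.2 kb, against 17.6 kb for all.

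Of 23 meiotic recombination genes 1 held a member (4.35%). Of 11 synaptonemal complex and meiotic cohesin genes none did, although 10 had a promoter peak in both lists. Of 18 genes listed as germ line regulators 3 did, *Rfx2*, *Rfx4* (4.91 and 5.07) and *Gfra1* (8.02 and 4.88), which the list holds although it encodes a receptor subunit of spermatogonial stem cells. Of 18 piRNA genes 3 did, with *Tdrd9*, a helicase of the pathway, at 5.40 and 4.13 and with *Piwil1* and *Tdrd1* as the others. Median gene length was 43.6 kb for the recombination list, 44.0 kb for the germ line regulators and 46.4 kb for the piRNA list. It was 17.6 kb for all autosomal coding genes.

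Axoneme and flagellum genes, which are switched on during meiosis and built into the sperm tail, held 23 members in 13 of 28 genes, with fold enrichments of 3.11 to 9.16 in cKO. The strongest was in intron 1 of the dynein gene *Dnah2* (9.16 in cKO, 5.82 in WT), 2019 bp from the nearest start, with NRF1 and RFX motifs. *Cfap74* followed (7.69 and 4.13) with a short array of 26 bp. The median gene of the group was 109.1 kb long, and *Dnah17* held 4 members.

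Histone-modifying enzymes held 8 members in 5 of 31 genes, which had a median length of 76.8 kb over the 31. *Kdm6b*, an H3K27 demethylase, had 15.9 in cKO and 8.63 in WT, and *Kmt2d*, an H3K4 methyltransferase, held 4, the strongest at 12.4 and 7.32. Both peaks lay in intron 1 and neither held recurring copies. Very long adhesion and synaptic genes, with a median length of 1448 kb, held 31 members in 16 of 23 genes, 15 of them with recurring copies. *Auts2* and *Cdh13* (14.4 in cKO, 7.50 in WT) had the strongest.

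The limits of the rule cut through a continuous range. The member nearest a start was in *Has3*, 1002 bp away (2.95 in cKO, 3.19 in WT), and the shared intragenic peak just outside was in *Tmem63b*, 1000 bp away (7.04 and 4.88). Beyond the width limit the next peak was in *Prkce*, 5046 bp wide (16.7 and 10.3). The weakest members were in *Cntnap2* in the cKO list (2.45, −log10 q 1.68) and *Gramd3* in the WT list (2.63, −log10 q 1.66). In 52 members the peak itself reached a start although its midpoint did not, and leaving out such peaks moved the exon share to 21.2%.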

How the data were processed

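ATAC-seq peaks of purified pachytene spermatocytes were analysed from 1 list per genotype, *Arid1a* WT and *Arid1a* cKO, each made by the authors from 4 libraries. Per the study's methods and the submitters' processing notes, the authors trimmed reads with Trim Galore, aligned them to mm10 with Bowtie2, removed duplicates with Picard, called peaks in each library with MACS2 and intersected the peaks of the replicates. SAMtools and deepTools are also named in the notes. The deposited fold enrichment is a ratio, summit fragments plus 1 over the mean background of a library plus 1, the deposited −log10 q values come from MACS2, and the deposited −log10 p values and summit offsets were not used for a result. Depth is known only through the steps of the fold enrichment.

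Rows were collapsed by peak name (84006 rows to 30244 cKO peaks, 52419 rows to 19309 WT peaks), and positions were compared with GENCODE vM21 genes on the mm10 (GRCm38) reference. The members and lists were chosen with earlier results of these data known. Base composition and motifs were read in 300 bp around the midpoint, recurring copies by 20-mers over the whole peak, and uniqueness by 50-mers taken every 25 bp and counted over the genome. Gained intragenic and shared intergenic peaks met the same limits on width and distance. Differences were computed for each autosome and tested by an exact sign-flip permutation test over 19 autosomes, two-sided, with Benjamini-Hochberg adjustment over 12 planned tests and, separately, 14 tests added after the data were seen. The autosomes of 1 pair of lists are not biological replicates. Intervals are 95% Wilson intervals and cover counting error only. The procedures were tested on simulated data.

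Named genes were the 8 intronic and 8 exonic members with the highest cKO −log10 q among those with at least 50% unique 50-mers, the 6 genes with the most members, the 4 highest and 4 lowest cKO to WT ratios at a −log10 q of at least 10 in both lists, the 2 genes with the strongest member of each list, and the members at the limits. A few genes that this rule names are not reported here. The strongest arrays, CpG-rich introns and members at or under 1/2 were named after the data were seen. Alternatives changed the distance from starts, width, overlap, exon assignment, peak strength, row number, window, uniqueness and unit of the test. Python 3.11.15, numpy 2.4.6, scipy 1.17.1, pandas 2.3.3 and matplotlib 3.10.9 were used. Coverage tracks and calls of single libraries were not analysed here.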

Additional observations from a re-analysis of the deposited data

How the results depend on the processing

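No paired analysis was possible because each genotype has 1 peak list, and for the same reason leaving out each replicate in turn was not run. The density of members in exons against introns and the CpG ratio of exonic against intronic members kept their direction and call under every alternative run, whereas comparisons with gained and intergenic peaks did not. The causes were not tested. Units are percentage points for shares, GC content, CTCF and promoter peaks.

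At a −log10 q from 5 to 10 there were 627 members, and the differences from gained peaks were 0.352 for exon share, 0.965 for GC content, 0.00712 for CpG ratio, 506.2 bp for distance and 1.13 for promoter peaks. Those from intergenic peaks were 0.255 for CTCF and -0.0388 for CpG ratio. At 10 or more there were 1387 members, with 5.54 for exon share, 0.0137 for CpG ratio, -1507 bp for distance and 4.08 for promoter peaks against gained peaks, and -0.0372 for CpG ratio against intergenic peaks. At 5 or more the values were 0.611 for exon share, 258.1 bp for distance and 0.525 for promoter peaks.

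At 3000 bp from starts the exon share of members was 16.7%, and differences from gained peaks were -2.71 for exon share, 0.0377 for CTCF and 664 bp for distance, with CTCF at 0.113 against intergenic peaks and 0.602 against flanks. At 500 bp the exon share was 24.2%, and the differences from gained peaks were 0.277 for exon share, 153 bp for distance and 0.755 for promoter peaks, with CpG ratio at -0.0116 against intergenic peaks and CTCF at 0.454 against flanks. Under 2000 bp of width the exon share differed from gained peaks by -3.06 and CTCF by 0.0409, CTCF and CpG ratio from intergenic peaks by 0.0878 and -0.0319, and CTCF from flanks by 0.588.

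With the WT peak covering at least 50% of the cKO peak there were 1455 members, an exon share of 18.97% and a difference from gained peaks of -4.25. With at least 50% unique 50-mers the exon share was 27.2%, the differences from gained peaks were 2.23 for exon share and 0.0803 for CTCF, and the CpG ratio differed from intergenic peaks by -0.00629. Only peaks on 3 or more rows in both lists left 1342 members, with promoter peaks at -1.30 against gained peaks, CTCF at -0.623 against intergenic peaks, now past the threshold (adjusted p = 0.0234, exact test), and CpG ratio at -0.0313. The exon share was 36.3% by any base of the peak and 19.96% by exons of coding transcripts only. The CpG ratio against intergenic peaks was -0.0268 with 1 or more WT peaks and -0.0188 over the whole peak, and CTCF against flanks was 0.533 with peaks pooled over chromosomes.

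Leaving out peaks of recurring 20-mers and leaving out peaks that reach a start were alternatives chosen after seeing the data. The first gave an exon share of 29.4%, differences from gained peaks of 3.58 for exon share and 0.110 for CTCF, a CpG ratio difference of 0.00624 from intergenic peaks and a CTCF difference of 0.738 from flanks. The other gave 0.501 for CTCF against flanks. Leaving out long arrays, also chosen after seeing the data, kept the call on CpG-rich introns. Summits of weak members held as few as 13 fragments in the WT list, which limits what their levels can show.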
